A study of Homo sapiens and Mus musculus with 12 samples.

Results

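The genes carried by the mitochondrial genome were followed in cortical organoids, balls of cells grown from stem cells into tissue like the embryonic forebrain. In human, the members were all rows whose gene symbol starts with MT-, which gave 37 of 60675 genes: 13 mRNA genes, 2 rRNA genes and 22 tRNA genes. In mouse, they were all rows described as mitochondrially encoded, which gave 32 of 47729 genes: 13 mRNA, 2 rRNA and 17 tRNA genes. The human organoids, NOTCH2NL knockout (KO) or WT, were grown from the established embryonic stem cell line H9 and pooled 5 to 10 per library at week 4, on day 28. The mouse libraries came from 46C embryonic stem cells, made to carry the human NOTCH2NL-Sh_T197I sequence (N2NL) or an empty vector (EV), with organoids pooled 16 per library on day 6. Each of the 4 groups had 3 libraries, and RNA was selected by poly(A) in all of them. Each human genotype carries a single line code in the labels (H9_KO_E5del42 and H9_WT_E2del19), as does each mouse vector, so genotype or vector and line cannot be told apart. No label says that the pools came from separate cultures, so the p-values measure the spread between pools.

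The mitochondrial genome is a small circle that encodes core subunits of the respiratory chain, the rRNAs of the mitochondrial ribosome and the tRNAs it reads with. Both strands are copied into long precursors, and tRNAs that lie between the other genes are cut out of them, which frees the mRNAs and rRNAs on either side. Poly(A) tails are then added to most of the mRNAs, short ones to the rRNAs, and a CCA end to the tRNAs. Nuclear genes supply all other respiratory subunits and everything needed to copy, cut, modify and translate mitochondrial RNA. In the developing cortex, progenitors that become neurons move from glycolysis toward respiration. Mature tRNAs have no poly(A) tail and are short, so counts on tRNA genes in poly(A)-selected libraries need not follow the amount of mature tRNA.

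The tRNA genes called in KO by edgeR or DESeq2, and a neighbour of MT-TH that neither tool called, are shown first. The sequences are the transcript strand from GENCODE release 29 on GRCh38, and capitals mark the anticodon of a tRNA. MT-TH (tRNA histidine, chrM:12138-12206, plus strand) and MT-TY (tRNA tyrosine, chrM:5826-5891, minus strand) passed both tests in KO. MT-TP (tRNA proline, chrM:15956-16023, minus strand) and MT-TF (tRNA phenylalanine, chrM:577-647, plus strand) passed by DESeq2 only. MT-TS2 (a tRNA serine, chrM:12207-12265, plus strand) begins on the base after MT-TH ends.
MT-TH: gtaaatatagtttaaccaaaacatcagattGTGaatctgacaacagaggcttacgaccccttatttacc
MT-TS2: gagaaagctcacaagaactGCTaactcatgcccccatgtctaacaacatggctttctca
MT-TY: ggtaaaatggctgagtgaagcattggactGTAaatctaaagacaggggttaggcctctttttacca
MT-TP: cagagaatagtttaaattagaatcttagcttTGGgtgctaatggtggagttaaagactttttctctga
MT-TF: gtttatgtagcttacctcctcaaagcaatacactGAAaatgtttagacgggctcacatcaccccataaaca

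The remaining stretches show how the mRNA and the rRNAs discussed below end. The last 30 bases of MT-CYB (chrM:15858-15887, plus strand) close on a lone T, in capitals, the first base of a stop codon that the poly(A) tail completes. In all, 6 of the 13 mRNA genes had an annotated length that leaves 1 or 2 bases past the last full codon: MT-ND1, MT-ND2, MT-CO3, MT-ND3, MT-ND4 and MT-CYB. The last 50 bases of the 12S rRNA gene MT-RNR1 (chrM:1552-1601) and of the 16S rRNA gene MT-RNR2 (chrM:3180-3229), both on the plus strand, hold no long run of A at the end, so a tail on these RNAs is not part of the genome sequence.
MT-CYB: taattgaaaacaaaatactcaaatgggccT
MT-RNR1: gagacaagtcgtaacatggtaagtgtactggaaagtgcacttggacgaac
MT-RNR2: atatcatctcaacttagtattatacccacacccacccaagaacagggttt

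Library totals ran from 15381409 to 16382938 counts in human and from 16781742 to 20960391 in mouse, and levels are given as CPM, counts per 1000000 of the library. Where a library has 0 counts, the true level may reach 0.195 CPM in human and 0.179 in mouse (floor of 3 counts; counting error only). The targeted NOTCH2NL row had 0 counts in each KO library, against 4, 5 and 3 in WT. In mouse, the authors' deposited table lists NOTCH2NL at normalized values of 801, 709 and 740 in N2NL and at 0 in each EV library. The forebrain homeobox gene EMX2 was present in every library, at 67.5 to 159.9 CPM in KO, 102 to 219 in WT, 134 to 167 in N2NL and 120.4 to 124 in EV. Choroid plexus markers summed to 1425 to 4255 CPM in KO and 308 to 2200 in WT, mostly transthyretin (TTR), and the homeobox gene MSX1 on that list rose. Endothelium and blood markers summed to 3.37 to 5.52 CPM in KO and 1.36 to 2.74 in WT, with HBA1 and HBG1 at 0 in all libraries. The part of cell makeup in the mitochondrial results was not tested, and fewer cells of a type and less RNA per cell cannot be told apart in whole organoids.

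As shares of all gene counts, the mitochondrial mRNA genes together took 4.36%, 4.54% and 4.76% in KO libraries 1 to 3, against 3.80%, 4.10% and 4.49% in WT. These ranges overlapped. The 2 rRNA genes took 1.55%, 1.44% and 1.47% in KO, against 1.16%, 1.10% and 1.09% in WT. Every KO library lay above every WT library for the rRNA genes, a log2 ratio of group means of 0.41, against 0.14 for the mRNA genes. The 22 tRNA genes together took only 0.00622%, 0.00482% and 0.00734% in KO, against 0.00451%, 0.00506% and 0.00485% in WT. They amounted to 958, 741 and 1197 reads in KO and 700, 829 and 754 in WT, and the groups overlapped. All 37 genes summed to 6.04% ± 0.171 in KO and 5.25% ± 0.314 in WT (SD, n = 3 each), with no overlap between the groups. The exact 95% binomial interval of such a share was at most 0.0237 percentage points wide in any human library for these sums, which is small beside the spread between pools for the mRNA, rRNA and total shares. For the tRNA genes it was at most 0.000838 points wide, more than the whole range of the WT libraries, so counting error weighs on their share. No test was run on these sums.

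**Figure D1:**
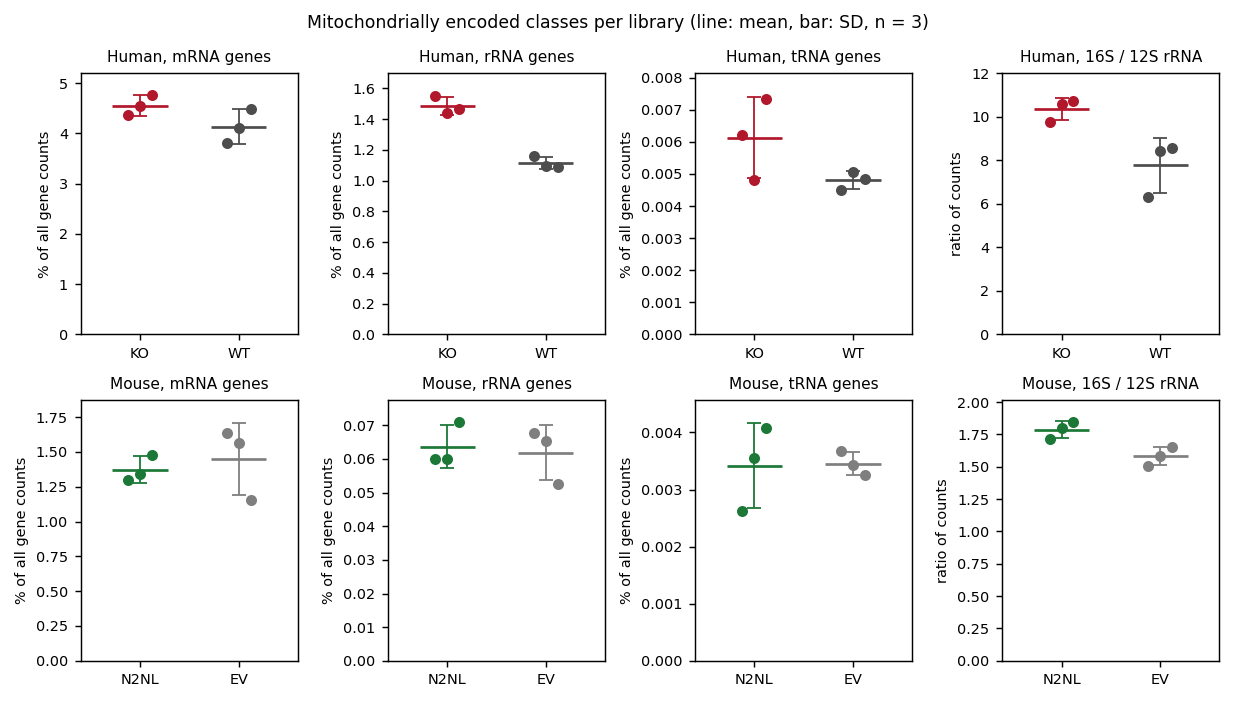
Share of all gene counts held by mitochondrial mRNA, rRNA and tRNA genes, and the ratio of 16S to 12S rRNA counts, in each library (points), with the group mean (line) and SD (bar); human KO and WT above, mouse N2NL and EV below. All 3 KO libraries lie above all 3 WT libraries for rRNA genes (1.44% to 1.55% against 1.09% to 1.16%) and for the 16S to 12S ratio, and all 3 N2NL libraries lie above all 3 EV libraries for that ratio (1.72 to 1.84 against 1.51 to 1.65), while the mouse groups overlap in all 3 shares.

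Of the 37 human genes, 26 had enough counts to be tested, and 3 were called higher in KO: the 16S rRNA gene MT-RNR2 and the tRNA genes MT-TH and MT-TY (edgeR quasi-likelihood test, Benjamini-Hochberg adjusted over all 16956 genes tested). None was called lower. Over all genes tested, 5.5% were called, 2.31% higher and 3.19% lower in KO. By class, 0 of 13 mRNA genes, 1 of 2 rRNA genes and 2 of 11 tested tRNA genes passed. At an unadjusted p under 0.05 the mRNA count was 1, against 22.8% of all genes tested, and by DESeq2 it was also 1, against 7.13%, MT-CYB both times. The median log2 fold change was 0.09 over the mRNA genes, with 11 of 13 above 0, and -0.0047 over all genes tested. All KO libraries lay above all WT libraries for 1 of 13 mRNA genes and 1 of 2 rRNA genes, against 14.1% of all genes tested, and below them for 0 of either class, against 14.8%. The filter on low counts asks for 0.644 CPM in 3 libraries, and MT-TY, MT-TD, MT-TH and MT-TP reached it in all KO libraries but in at most 1 WT library. Those 4 entered the test through KO, so the calls of MT-TH and MT-TY are not taken as support for a rise. For the same reason, nothing is read from counts over the tested tRNA genes or over all 26 tested genes.

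MT-RNR2, the RNA of the large mitochondrial ribosomal subunit, had 216369, 202108 and 218653 counts in KO and 155028, 160739 and 151805 in WT. The KO libraries all lay well above the WT libraries, which differed little among themselves. Scaled by TMM factors the level was 13403 ± 611 CPM in KO and 9952 ± 153 in WT (SD, n = 3 each). The log2 fold change was 0.43 ± 0.09 (SE; edgeR adjusted p = 0.0197). The fold stayed between 0.41 and 0.46 when any library was left out. The call was kept without WT 1 and without WT 2, and lost without KO 1 (edgeR adjusted p = 0.107), KO 2 (0.0589), KO 3 (0.0592) or WT 3 (0.0565). In the authors' deposited table MT-RNR2 has a log2 fold change of 0.42.

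MT-RNR1, the RNA of the small subunit, did not follow. Its counts were 22138, 19103 and 20330 in KO and 24465, 19106 and 17718 in WT, and the log2 fold change was -0.01 ± 0.13 (edgeR adjusted p = 0.974). WT 1 had the highest count of all 6 libraries and WT 3 the lowest. The fold was 0.15 without WT 1 (edgeR adjusted p = 0.403), 0.038 without KO 2 and 0.022 without KO 3, so no direction is read for this gene. The ratio of 16S to 12S counts was 9.77, 10.6 and 10.8 in KO, against 6.34, 8.41 and 8.57 in WT. The groups did not overlap, with WT 1 far below the other WT libraries. Both rRNA genes lie on the same strand, separated by the tRNA gene MT-TV, which had 7 to 11 counts in KO and 7 to 13 in WT and was not tested. Per length, MT-RNR2 stood at 8597 ± 392 CPM per kb in KO and 6383 ± 98.0 in WT, and MT-RNR1 at 1359 ± 128 in KO and 1369 ± 251 in WT.

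Among the mRNA genes, the cytochrome b gene MT-CYB, the mitochondrial subunit of complex III, was the 1 of 13 whose groups did not overlap, against 28.8% of all genes tested. It had 55073, 56482 and 65086 counts in KO and 40088, 45925 and 48535 in WT. The level was 3710 ± 229 CPM in KO and 2867 ± 317 in WT (SD, n = 3 each), and the log2 fold change of 0.37 ± 0.10 missed the threshold (edgeR adjusted p = 0.0622). It passed with DESeq2 (adjusted p = 0.0170), where 7.13% of all genes were called and 3.14% were called higher. It also passed with library size in place of TMM factors (edgeR adjusted p = 0.0355) and with no filter on low counts. MT-CYB was not called with DESeq2 size factors in edgeR, with scaling on nuclear genes or with a replicate block. With a library left out in turn it was called in 0 of 6 fits (edgeR adjusted p 0.0637 to 0.169). In the authors' deposited table its adjusted p is 0.0160. As a part of all mitochondrial mRNA counts, MT-CYB took 8.21%, 8.09% and 8.38% in KO and 6.80%, 6.83% and 6.95% in WT. This share needs no scaling between libraries, and its 2 groups did not overlap. It rests on the same counts that singled out MT-CYB, so it is not separate support, and it was not tested.

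The 7 complex I genes, MT-ND1 to MT-ND6 and MT-ND4L, had log2 fold changes between -0.05 ± 0.12 (MT-ND4L) and 0.15 ± 0.10 (MT-ND3), and none passed. Their share of mitochondrial mRNA counts was 32.02%, 31.7% and 32.4% in KO and 32.3%, 33.2% and 33.8% in WT. MT-ND6, the mRNA gene of the minus strand, had 107, 72 and 72 counts in KO and 71, 86 and 94 in WT. It stood far below all other mRNA genes and its groups overlapped (log2 fold change -0.01 ± 0.24, edgeR adjusted p = 0.983). The part of the poly(A) selection in the low level of MT-ND6 was not tested. The 3 complex IV genes stood at 0.09 ± 0.09 (MT-CO1), 0.16 ± 0.10 (MT-CO2) and 0.07 ± 0.10 (MT-CO3) on the log2 scale. The ATP synthase genes stood at 0.30 ± 0.20 (MT-ATP8) and 0.16 ± 0.11 (MT-ATP6), and neither passed. MT-ATP8 and MT-ATP6 share 46 bases, and MT-ND4L and MT-ND4 share 7, so reads in those overlaps could not be given to either gene with certainty.

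Per length, the order of the mRNA genes was nearly the same in both groups. The complex IV genes came first, with MT-CO2 at 8862 ± 598, MT-CO1 at 8479 ± 354 and MT-CO3 at 7764 ± 211 CPM per kb in KO, against 7923 ± 632, 7992 ± 556 and 7414 ± 864 in WT. MT-CO1 and MT-CO2 overlapped in both groups and changed places between them. MT-ND4 and MT-ND4L, at 4202 ± 221 and 3994 ± 489 in KO and 4110 ± 510 and 4144 ± 508 in WT, overlapped too. MT-ND1 (3293 ± 112) and MT-CYB (3251 ± 201) overlapped in KO, whereas in WT MT-CYB (2512 ± 278) lay below MT-ND1 (3118 ± 295) in all libraries. By their means, MT-ND3, MT-ATP6, MT-ND2, MT-ATP8 and MT-ND5 followed in that order in both groups, from 2367 ± 215 to 1030 ± 107 in KO and 2128 ± 185 to 935 ± 129 in WT. Within this run each gene overlapped the one ranked above it, except that MT-ND2 lay below MT-ATP6 in all KO libraries. MT-ND6 came last, at 10.1 ± 2.71 in KO and 10.2 ± 1.57 in WT (SD, n = 3 each).

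**Figure D2:**
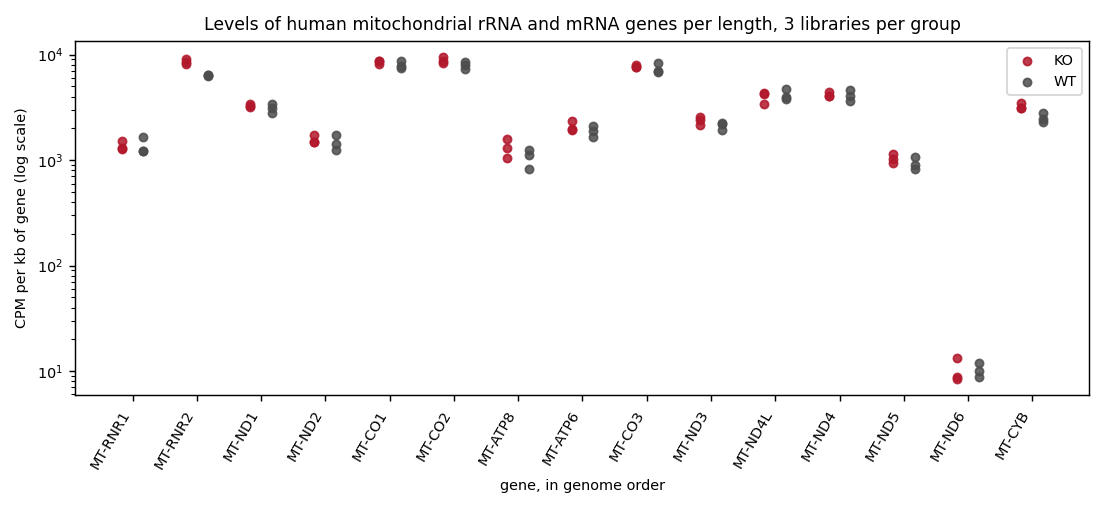
Levels of the human mitochondrial rRNA and mRNA genes in CPM per kb of gene (log axis), in genome order, with a point per library for KO (left, red) and WT (right, grey). Complex IV genes and MT-RNR2 stand highest, MT-ND6 lowest at about 10.1 in KO and 10.2 in WT, and the groups stand apart for MT-RNR2 and MT-CYB.

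MT-TH had 32, 22 and 45 counts in KO and 7, 4 and 9 in WT. The groups did not overlap, but MT-TH entered the test through KO, so this gap is not taken as support for a rise. The level was 2.07 ± 0.676 CPM in KO and 0.431 ± 0.177 in WT (SD, n = 3 each). The log2 fold change was 2.26 ± 0.44 (edgeR adjusted p = 0.0180). The call was kept without KO 2 and without WT 1, and lost without KO 1 (edgeR adjusted p = 0.0682), KO 3 (0.0634), WT 2 (0.0578) or WT 3 (0.0638). The tRNA gene on its 3′ side, MT-TS2, had 259, 155 and 314 counts in KO and 284, 265 and 228 in WT. Its groups overlapped (log2 fold change -0.11 ± 0.23, edgeR adjusted p = 0.810). The ratio of MT-TH to MT-TS2 counts was 0.124, 0.142 and 0.143 in KO, against 0.0246, 0.0151 and 0.0395 in WT. This ratio uses the same MT-TH counts and is not separate support. MT-ND4, the complex I gene that ends on the base before MT-TH, stood at 0.03 ± 0.11 on the log2 scale.

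MT-TY, which like MT-TP entered the test through KO, had 18, 15 and 27 counts in KO and 8, 3 and 2 in WT. The MT-TY groups did not overlap. The log2 fold change was 2.15 ± 0.53 (edgeR adjusted p = 0.0435), the weakest of the 3 calls. It was kept when WT 1 was left out and in no other such fit: the edgeR adjusted p ran from 0.0769 (without KO 2) to 0.172 (without WT 3) when any other library was left out. MT-TP had 44, 12 and 50 counts in KO and 5, 10 and 10 in WT. KO 2 lay just above the WT libraries and the other KO libraries far above (log2 fold change 2.05 ± 0.55, edgeR adjusted p = 0.0598). Without KO 2 it passed, at an edgeR adjusted p of 0.0196. MT-TF, which opens the plus-strand transcript ahead of the rRNA genes, had 124, 87 and 174 counts in KO and 53, 89 and 64 in WT (0.88 ± 0.27, edgeR adjusted p = 0.0901). In raw counts KO 2 stood 2 below the highest WT library, and after scaling it stood above it, at 5.52 CPM against 5.41.

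The other tested tRNA genes did not pass. MT-TD (tRNA aspartate), MT-TM (tRNA methionine) and MT-TI (tRNA isoleucine) had log2 fold changes of 1.14 ± 0.38, 1.03 ± 0.39 and 0.61 ± 0.25 with no overlap between groups after scaling. All KO libraries lay above all WT libraries for 14.1% of all genes tested. For MT-TI, KO 2 had 60 raw counts against 61 in WT 2, and 3.81 CPM against 3.71 after scaling. MT-TD entered the test through KO. MT-TL1, a tRNA leucine, stood at 0.34 ± 0.20. MT-TT (tRNA threonine) stood at -0.09 ± 0.25 and MT-TW (tRNA tryptophan) at -0.24 ± 0.21. The 11 tRNA genes that were not tested had between 0 and 18 counts per library. Of these, MT-TN (tRNA asparagine) and MT-TK (tRNA lysine) had 0 counts in all 6 libraries, MT-TA (tRNA alanine) had 10, 5 and 5 counts in KO and 2, 0 and 1 in WT, and MT-TG (tRNA glycine) had 3, 6 and 9 in KO and 0, 2 and 2 in WT. By DESeq2 the tRNA calls were MT-TH, MT-TY, MT-TP and MT-TF, and the same 4 tRNA genes pass in the authors' deposited table, where 7.38% of all genes do.

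By strand, the tRNA genes divided unevenly. The 8 minus-strand tRNA genes, MT-TQ, MT-TA, MT-TN, MT-TC, MT-TY, MT-TS1, MT-TE and MT-TP, summed to 114, 61 and 113 counts in KO and 29, 29 and 36 in WT. Every KO library lay above every WT library, a log2 ratio of mean shares of 1.62. The 14 plus-strand tRNA genes summed to 844, 680 and 1084 counts in KO and 671, 800 and 718 in WT, with overlap and a log2 ratio of 0.26. This split was made after the values were seen, and MT-TP and MT-TY alone gave 62, 27 and 77 of the minus-strand counts in KO and 13, 13 and 12 in WT. The groups of MT-ND6, the remaining minus-strand gene, overlapped. No source used here gives the strand setting of the counting, so reads antisense to these genes cannot be set apart.

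**Figure D3:**
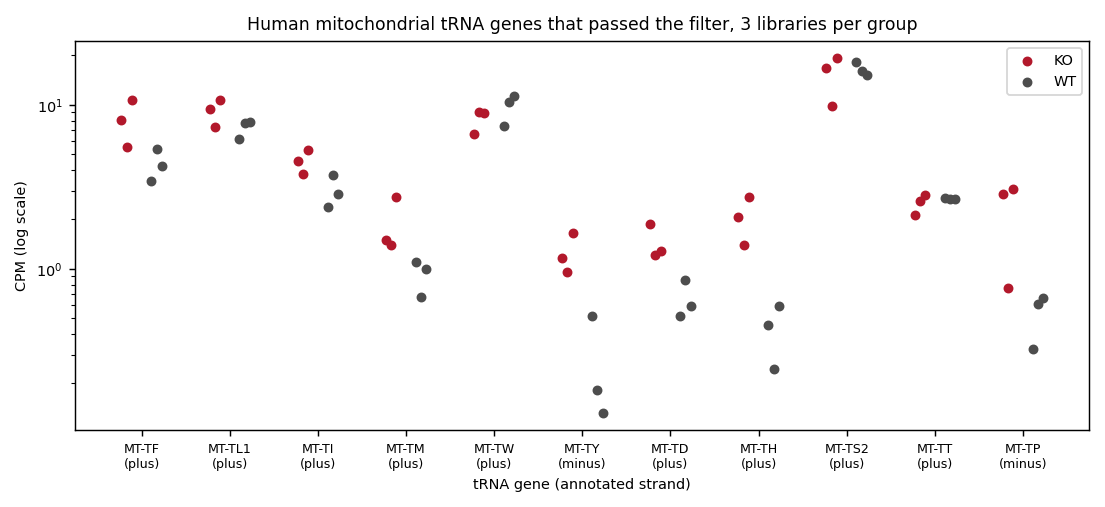
CPM (log axis) of the 11 human mitochondrial tRNA genes that passed the filter on low counts, in genome order with their annotated strand, a point per library for KO (left, red) and WT (right, grey). The fold between group means is largest for MT-TY, MT-TH and MT-TP, though KO 2 lies just above the WT libraries for MT-TP. MT-TY, MT-TH, MT-TP and MT-TD passed the filter through KO, so nothing is read from this ranking. The groups overlap for MT-TL1, MT-TW, MT-TS2 and MT-TT.

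**Figure D4:**
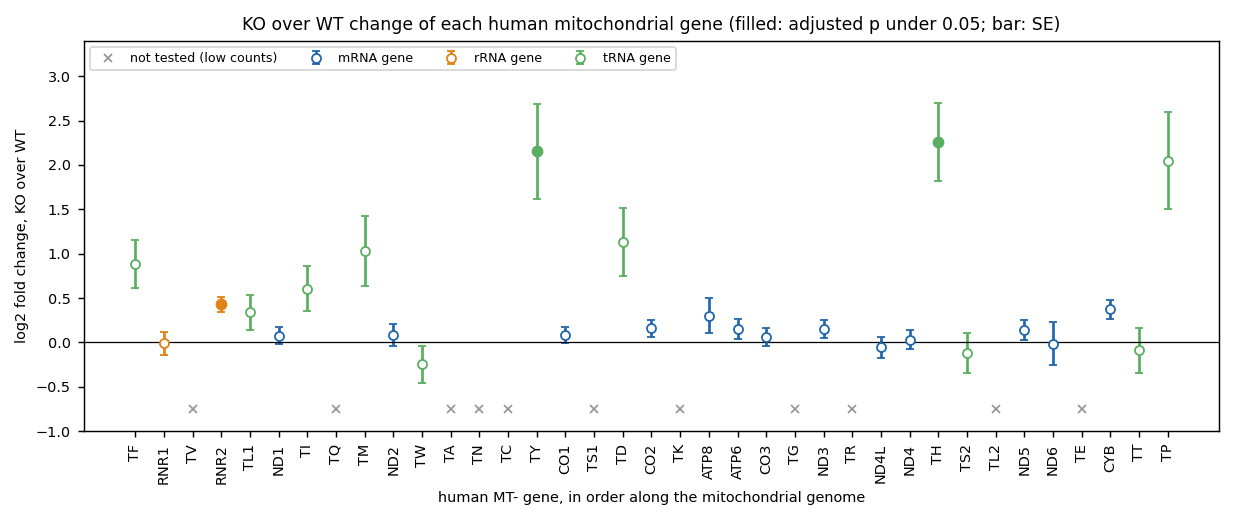
Log2 fold change of KO over WT with its SE for the 26 tested human mitochondrial genes along the genome, coloured by class; filled points passed an adjusted p of 0.05 and crosses mark the 11 genes not tested. The 3 filled points are MT-RNR2, MT-TY and MT-TH. MT-TY and MT-TH entered the test through KO. The 13 mRNA genes lie between -0.05 and 0.37.

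Copies of mitochondrial DNA lie in the nuclear genome, and reads can fall on either. Of 386 human gene symbols named as such copies, 270 had no count in any library and 14 were tested. None passed (0 by DESeq2 and 0 at an unadjusted p under 0.05). Over all genes, 5.5% passed by edgeR, 7.13% passed by DESeq2 and 22.8% had an unadjusted p under 0.05. MTATP6P1, a copy of MT-ATP6 on chromosome 1, had 5603, 6041 and 8191 counts in KO and 4605, 5793 and 6539 in WT, which is 28.8% of the counts of MT-ATP6 itself. MTND2P28 and MTND4P12 had 2.60% and 1.27% of the counts of MT-ND2 and MT-ND4, and MTND6P21 had 6.37% of the few counts of MT-ND6. Levels of these 4 parent genes are therefore uncertain. No copy of MT-RNR2 or MT-CYB exceeded 1% of its parent's counts.

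Of the nuclear genes that serve the mitochondrial genome, 3 were called in KO, and the share called in each of their 3 lists was below the 5.5% of all genes tested. Of 22 genes of mitochondrial DNA transcription and replication, 0 rose and 1 fell. This was RRM2B, a ribonucleotide reductase subunit that supplies DNA building blocks, at 13.4, 13.95 and 14.3 CPM in KO and 22.8, 17.9 and 23.8 in WT (log2 fold change -0.63 ± 0.14, edgeR adjusted p = 0.0321). Of 43 genes that process, modify or degrade mitochondrial RNA, 1 rose and 0 fell. This was TRNT1, which adds the CCA end to tRNAs, at 21.3, 19.2 and 19.3 CPM in KO and 13.97, 14.2 and 14.4 in WT (0.49 ± 0.12, edgeR adjusted p = 0.0462). The 43 genes summed to 1643 to 1674 CPM in KO and 1558 to 1634 in WT, with no overlap. Of 80 tested mitochondrial ribosomal protein genes, 1 rose and 0 fell. This was MRPL15, of the large subunit, at 43.7, 45.3 and 48.1 CPM in KO and 34.3, 31.2 and 37.5 in WT (0.41 ± 0.10, edgeR adjusted p = 0.0484). Groups did not overlap for any of these 3 genes, as for 28.8% of all genes tested. With a library left out in turn, TRNT1 and MRPL15 were called in 0 of 6 fits (edgeR adjusted p 0.0602 to 0.171 and 0.0518 to 0.134), and RRM2B in 2, when WT 1 or WT 2 was left out (0.0237 to 0.147).

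None of the 19 mitochondrial translation factors, 19 mitochondrial aminoacyl-tRNA synthetases, 36 tested nuclear complex I genes, 9 complex III genes, 11 complex IV genes or 15 ATP synthase genes passed in KO (edgeR and DESeq2, 0 each). At an unadjusted p under 0.05 there were 2, 5, 6, 1, 1 and 2 such genes in these lists, against 22.8% of all genes tested. Their median log2 fold changes ran from -0.04 (complex I) to 0.12 (translation factors). The summed level of nuclear complex III genes, the partners of cytochrome b, was 1306 to 1344 CPM in KO and 1280 to 1397 in WT, and the groups overlapped. Of 11 tested targets of the integrated stress response, which loss of mitochondrial function can induce, 0 passed by edgeR or DESeq2 and 1 had an unadjusted p under 0.05.

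Of the 10 telencephalon and progenitor markers, SIX3, an anterior forebrain homeobox gene, rose (log2 fold change 2.03 ± 0.19, edgeR adjusted p = 3.10e-04) and the rest did not pass, where 5.5% of all genes tested were called. The 10 markers summed to 3817 to 4527 CPM in KO and 4532 to 4780 in WT. Every KO library thus lay below every WT library in this sum, the highest KO library only just. Of 7 neuron markers, the tubulin gene TUBB3 and the tau gene MAPT fell by 0.52 ± 0.12 and 0.37 ± 0.09 on the log2 scale (edgeR adjusted p = 0.0316 and 0.0404). With a library left out in turn, these 2 calls held in 1 of 6 fits, when it was WT 1, and neuron markers summed to 2911 to 4000 CPM in KO and 3074 to 3812 in WT. MSX1 (1.17 ± 0.26, edgeR adjusted p = 0.0467) held in the same fit only. Of 3 tested muscle markers, the troponin gene TNNI1 fell by 2.21 ± 0.33 on the log2 scale (edgeR adjusted p = 0.00538). Of 5 tested neural crest and mesenchyme markers, the matrix gene LUM fell by 2.04 ± 0.40 and the pericyte receptor gene PDGFRB rose by 1.13 ± 0.25 (edgeR adjusted p = 0.0181 and 0.0403). TNNI1 was called in all 6 of those fits, LUM in 3 and PDGFRB in 0. Muscle markers summed to 8.89 to 11.4 CPM in KO and 10.8 to 13.2 in WT, with TNNT2 and MYL2 at 0 in all libraries. Neural crest and mesenchyme markers summed to 37.05 to 63.2 CPM in KO and 32.3 to 58.8 in WT. The part of these cells in the mitochondrial results was not tested.

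In mouse, 17 of the 32 mitochondrial genes were tested, and none passed the test between N2NL and EV (edgeR, 0 called; DESeq2, 0; unadjusted p under 0.05, 1). Over all 16682 genes tested, 0.012% passed by edgeR and 7.45% had an unadjusted p under 0.05. By DESeq2 0.179% of all genes passed. The shares of all gene counts overlapped in each class. The mRNA genes took 1.30%, 1.34% and 1.48% in N2NL and 1.64%, 1.56% and 1.16% in EV, where EV 3 lay below all other libraries. The rRNA genes took 0.0599%, 0.0599% and 0.0710% in N2NL and 0.0678%, 0.0654% and 0.0527% in EV. The tRNA genes took 0.00262%, 0.00356% and 0.00408% in N2NL and 0.00367%, 0.00343% and 0.00326% in EV.

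The 16S rRNA (ENSMUSG00000064339) had 7719, 6510 and 7728 counts in N2NL and 7514, 8403 and 6725 in EV (log2 fold change 0.11 ± 0.09, edgeR adjusted p = 0.857). The 12S rRNA (ENSMUSG00000064337) had 4495, 3611 and 4189 counts in N2NL and 4980, 5299 and 4064 in EV (-0.07 ± 0.10, edgeR adjusted p = 0.932). Neither passed, and each gene's groups overlapped. The ratio of 16S to 12S counts was 1.72, 1.80 and 1.84 in N2NL and 1.51, 1.59 and 1.65 in EV, with no overlap. No test was run on this ratio. It lay far below the human ratios of 6.34 to 10.8, which were measured at another age, with another table of genes.

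Cytochrome c oxidase I had the highest mRNA counts in mouse, at 99747, 81357 and 87219 in N2NL and 103744, 117064 and 90129 in EV (log2 fold change -0.06 ± 0.10, edgeR adjusted p = 0.947). Cytochrome b, whose human counterpart had separate groups, had 51465, 43339 and 49036 counts in N2NL and 63206, 68437 and 49068 in EV (-0.17 ± 0.12, edgeR adjusted p = 0.820). EV 3 overlapped the N2NL libraries. NADH dehydrogenase 1, 2, 4 and 5 lay between -0.09 ± 0.17 and 0.05 ± 0.20 on the log2 scale, and NADH dehydrogenase 6, with 110 to 197 counts in N2NL and 119 to 175 in EV, stood at 0.31 ± 0.22. The median over the 9 tested mRNA genes was -0.07, against -0.0058 over all genes tested.

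A block of mouse mRNA genes was nearly absent from the counts. Cytochrome c oxidase II, ATP synthase 8, ATP synthase 6, cytochrome c oxidase III, NADH dehydrogenase 3 and NADH dehydrogenase 4L had between 0 and 21 counts per library, 201 in all 6 libraries together. The other 6 mRNA genes apart from NADH dehydrogenase 6 had between 18577 and 117064 counts each. In human, the same 6 genes follow one another with only tRNA genes between them, from chrM:7586 to 10766, and held 34.5% to 35.6% of mitochondrial mRNA counts in every library. Mouse mitochondrial DNA has the same order of these genes. Reads that aligned to several places made up 26.6% to 33.7% of the reads in the mouse summary lines and genes, and the mouse nuclear genome is known to carry a near-identical copy of part of the mitochondrial genome. The part of such reads in the low counts was not tested, so no level is read from these 6 genes. The mouse mRNA shares hold almost no counts from them.

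Within that block, ATP synthase 6 and cytochrome c oxidase III passed the filter. ATP synthase 6 had 5, 9 and 4 counts in N2NL and 10, 16 and 13 in EV (log2 fold change -0.94 ± 0.44, edgeR adjusted p = 0.674). All N2NL libraries lay below all EV libraries, as for 5.31% of all genes tested. It reached the filter level in 3 EV libraries and in 1 N2NL library, so it entered the test through EV and nothing is read from it. The tRNA for threonine had 44, 41 and 37 counts in N2NL and 29, 32 and 33 in EV, the 1 tested member whose N2NL libraries all lay above EV, against 7.39% of all genes tested. Its log2 fold change was 0.53 ± 0.23 (edgeR adjusted p = 0.648). The tRNA for methionine was the most counted mouse tRNA gene, at 330, 379 and 454 in N2NL and 473, 498 and 425 in EV (-0.09 ± 0.16). The tRNA for proline had 76 counts in EV 3, against 21 and 9 in the other EV libraries and 21, 13 and 23 in N2NL. The 11 mouse tRNA genes that were not tested had 0 to 15 counts per library, and tRNA tyrosine, whose human counterpart was called higher in KO, had 1 count in all 6 libraries together.

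**Figure D5:**
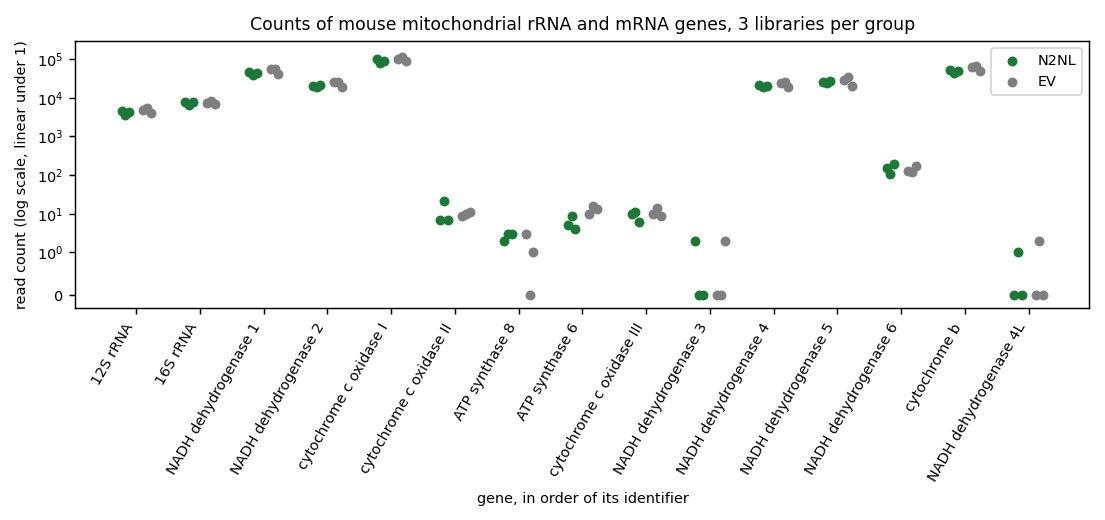
Read counts of the mouse mitochondrial rRNA and mRNA genes (log axis, linear under 1), in order of their identifiers, with a point per library for N2NL (left, green) and EV (right, grey). The groups overlap for every gene except ATP synthase 6 (5, 9 and 4 counts in N2NL, 10, 16 and 13 in EV), and 6 mRNA genes have 0 to 21 counts where 6 others have 18577 to 117064.

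None of the nuclear lists held a called gene in N2NL against EV by edgeR. The 79 tested mitochondrial ribosomal protein genes had a median log2 fold change of -0.09, with 71 below 0, and the 35 tested nuclear complex I genes a median of -0.10, with 33 below 0. No gene of these 2 lists passed by DESeq2 either, and 2 in each had an unadjusted p under 0.05, against 7.45% of all genes tested. Their summed levels overlapped between groups, at 4008 to 4604 CPM in N2NL and 4448 to 4665 in EV for the ribosomal proteins, and at 2669 to 3090 in N2NL and 3015 to 3126 in EV for complex I. The 19 mitochondrial aminoacyl-tRNA synthetase genes summed to 1797 to 1865 CPM in N2NL and 1724 to 1754 in EV, with no overlap. Their median log2 fold change was -0.014, with 10 of 19 below 0, and 1 had an unadjusted p under 0.05. The sum is therefore not read as a rise of the list. By DESeq2, the progenitor marker LHX2 (0.49 ± 0.09; DESeq2 adjusted p = 0.00364) and the neuron marker STMN2 (-0.41 ± 0.09; 0.0405) passed, where 0.179% of all genes did. Neuron markers summed to 594 to 661 CPM in N2NL and 686 to 822 in EV, with no overlap, and the part of this difference in the mitochondrial values was not tested.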

How the data were processed

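Poly(A)-selected RNA was sequenced from 12 organoid libraries with a strand-specific kit, per the labels' protocols. Per the submitters' processing notes, the builds were GRCh38 and GRCm38 and the tools, whose roles are not stated, were HTSeq 0.6.1p1, DESeq2 2.11.39, STAR 2.4.0, Bowtie2 2.3.3.1 and Trimmomatic 0.36. The authors deposited raw counts per Ensembl gene, which all levels and tests here use as they stand. The authors' deposited comparison tables hold normalized values and statistics (treated as a score), a log2 fold change and a p-value with its adjusted p-value, and only values named as theirs are printed. No column with values of a sample stayed unassigned. Human replicate numbers follow the raw count columns; in both human groups the authors' normalized columns of replicates 1 and 3 are exchanged relative to them, so which of these numbers is right is unknown. Exchanging both groups leaves the same pairs, and no normalized human value is printed. The 5 summary lines of the mouse counter, which held 26.6% to 33.7% of reads as aligned to several places, were kept out of totals and fits.

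Members and gene lists were chosen with earlier results of these data known. Human classes and strands come from GENCODE release 29, and mouse classes from the gene descriptions. List genes (318 symbols) were matched by symbol in human (317) and by exact description in mouse (311).

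The test, run per species, was that of edgeR 4.0.16 under R 4.3.3 (filterByExpr, TMM factors, robust quasi-likelihood F test, group as the only term, Benjamini-Hochberg adjusted p under 0.05). CPM carry TMM factors, the ± of a fold is an approximate SE (the fold over the root of F), and ± of a level is the SD. Shares are of all gene counts without scaling, with exact (Clopper-Pearson) 95% intervals from scipy 1.17.1. Class sums and ratios were not tested. An exact permutation test of 3 against 3 cannot go below p = 0.1. In simulated counts with 100 genes changed by each fold, the test recovered 71 genes at a log2 fold of 1 and 94 at 2 in human, and 87 and 100 in mouse. Among unchanged genes it called 4 in human and 10 in mouse. The simulated spread followed the trend over genes rather than each gene's own. Smaller folds, such as those of MT-RNR2 and MT-CYB, were not simulated. DESeq2 1.42.0, other scalings, no filter, a replicate block and each library left out were run as alternatives. Named genes are all mRNA and rRNA members, the tRNA genes that passed the filter, list genes that were called, and nuclear copies with over 1% of their parent's counts; further tRNA genes were named after their values were seen.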

Additional observations from a re-analysis of the deposited data

How the results depend on the processing

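Of 26 tested human mitochondrial genes 3 were called, where 5.5% of all genes tested were. The number was 6 with DESeq2, where 7.13% of all genes were called, and 6 with no filter on low counts. The additions were MT-CYB, MT-TP and MT-TF. Leaving out 1 library gave 0 to 3, while the calls over all genes ran from 224 to 1440. With library size alone the number was 4, with other scalings 3. In the filtered edgeR fit of all libraries MT-TH, MT-TY and MT-TP entered through KO, so nothing is read from these counts. In mouse the number called was 0 under every alternative run. The class shares moved by less than the spread between libraries under all denominators and when 1 library was left out. Replicate numbers were not taken to pair the samples: deviations of same-numbered libraries correlated at 0.22, -0.11 and 0.13 in human and 0.14, 0.016 and -0.0049 in mouse. With a replicate block 2 human and 0 mouse members were called, and MT-TY was not (edgeR adjusted p = 0.0670). Over all genes the mouse calls went to 21 with the block, 26 with DESeq2 and 117 with no filter, against 2, and the human calls to 2155 with no filter, against 932; the cause was not tested. Folds near 0 changed sign: MT-RNR1 stood at 0.02 with library size alone and 6.8e-04 with the block, and MT-ND6 at 0.015 with library size alone. When 1 library was left out, sign changes gave ranges of -0.081 to 0.15 for MT-RNR1, -0.027 to 0.22 for MT-ND2, -0.12 to 0.060 for MT-ND4L, -0.046 to 0.13 for MT-ND4, -0.31 to 0.12 for MT-TS2, -0.24 to 0.11 for MT-ND6 and -0.17 to 0.028 for MT-TT. In mouse the ranges were -0.18 to 0.025 for 12S rRNA, -0.25 to 0.58 for tRNA leucine 1, -0.64 to 0.12 for tRNA glutamine, -0.26 to 0.080 for tRNA methionine and -1.21 to 0.47 for tRNA proline. They were -0.21 to 0.063, -0.25 to 0.057, -0.16 to 0.069 and -0.15 to 0.16 for NADH dehydrogenase 1, 2, 4 and 5, and -0.16 to 0.0038 and -0.35 to 0.055 for cytochrome c oxidase I and III. Depth limits the tRNA genes most: MT-TH and MT-TY rest on 2 to 45 counts per library.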
